A study of Rattus norvegicus with 6 samples.

Results

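The genes described here were the matrix metalloproteinases (Mmp), the Adamts proteases with their catalytically inactive Adamtsl relatives, and the tissue inhibitors of metalloproteinases (Timp). A gene was included when its symbol began with Mmp and a number, with Timp and a number, or with Adamts, and when it had probe sets annotated to that symbol alone. This gave 37 of the 13378 genes measured: 19 Mmp, 12 Adamts, 3 Adamtsl and 3 Timp genes, with 656 probe sets between them. The rule used names only and no measured value. Another 15 genes of the GRCr8 gene table carried such a symbol and are not analysed here, among them Timp4, Adamts4 and Mmp28. Expression was measured on Affymetrix rat exon arrays in the L5 dorsal root ganglion (DRG) of male Wistar rats. Ganglia of naive rats were compared with ganglia removed 7 days after the L5 spinal nerve had been cut (spinal nerve transection, SNT), with 3 arrays per group and 4 rats pooled on each array. The controls were unoperated, so effects of the surgery and of the cut nerve cannot be told apart, and the age of the rats is not given in the sources used here. All values are log2 levels, and a log2 fold change is the SNT mean minus the naive mean.

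Matrix metalloproteinases are zinc endopeptidases that are made as inactive precursors and cut collagens, laminins, proteoglycans and many cell surface proteins. Adamts proteases carry thrombospondin-type repeats and include the enzymes that cut the large proteoglycans aggrecan, versican and brevican, procollagens and von Willebrand factor. Timps bind the active site of these enzymes and block it. In injured peripheral nerve and ganglion the family is known for opening the blood-nerve barrier, for clearing and rebuilding matrix, and for processing cytokines.

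A run of 10 family genes lies side by side on rat chromosome 8 with no other protein-coding gene annotated between them: Mmp13, Mmp12, Mmp1b, Mmp3, Mmp1, Mmp10, Mmp8, Mmp27, Mmp20 and Mmp7. Of these, 8 were measured, all but Mmp1 and Mmp27. In the 250 bases before the start of the gene, 6 of the 8 held the letters TGANTCA, where N is any base. These letters include the AP-1 motif to which Jun and Fos proteins bind, and the 2 genes without them were Mmp1b and Mmp8. No other member among the 26 with a promoter entry held them, and 6.34% of all 33469 rat promoters did. The members without an entry were not searched. These were Mmp2, Mmp9, Mmp14, Mmp16, Mmp17, Mmp19, Adamts5, Adamts8, Adamts15, Adamts16 and Adamts19, so the letters may also stand before genes outside the run. The letters read alike on both strands. The match began 66 bases before the start in Mmp13, 87 in Mmp12, 71 in Mmp3, 61 in Mmp10, 96 in Mmp20 and 80 in Mmp7. The middle base was C in Mmp13, A in Mmp20 and G in the others, and the counts take any middle base. The 60 bases around each match are shown because these neighbours carry this pattern at a similar distance and differ in how they changed. The sequences are from RefSeq (build GRCr8, plus strand, 5′ to 3′), with the matched letters in capitals:
Mmp13 (chr8:12782737-12782796): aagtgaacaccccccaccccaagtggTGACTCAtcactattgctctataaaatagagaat
Mmp12 (chr8:12866539-12866598): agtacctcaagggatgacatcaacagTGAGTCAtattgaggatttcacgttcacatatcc
Mmp3 (chr8:12925184-12925243): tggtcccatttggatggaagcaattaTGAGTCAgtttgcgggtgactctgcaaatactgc
Mmp10 (chr8:12974620-12974679): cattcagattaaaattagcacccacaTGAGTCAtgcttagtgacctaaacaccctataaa
Mmp20 (chr8:13074157-13074216): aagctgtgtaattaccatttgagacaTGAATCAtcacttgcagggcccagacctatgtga
Mmp7 (chr8:13132937-13132996): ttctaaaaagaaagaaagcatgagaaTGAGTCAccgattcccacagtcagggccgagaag
Mmp12, Mmp3 and Mmp7 were called higher after SNT, Mmp13 was called lower, and Mmp10 and Mmp20 did not pass the test. The array signal of Mmp3, Mmp10 and Mmp20 was low in both groups. A match describes the letters only, and binding was not measured.

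After SNT, 11 of the 37 genes were higher and 1 was lower at an adjusted p under 0.1, the false discovery rate of the study's methods (limma, adjusted over all genes). The genes called higher were Mmp12, Mmp19, Mmp7, Mmp16, Mmp2, Timp1, Adamts1, Mmp23, Mmp11, Adamtsl5 and Mmp3, and the gene called lower was Mmp13. The members called higher were 29.7% of the family, where 12.9% of all genes were called higher, and the member called lower was 2.70%, where 23.3% of all genes were called lower. Of all calls 35.7% were thus upward, a share that was 46.1% after cyclic loess and 56.2% after centring each array on its median. Over 2-fold rises were called for 6 members (Mmp12, Mmp19, Mmp7, Mmp16, Mmp2 and Timp1) of 311 such genes on the array, and no member fell as far, where 528 genes did. The median log2 fold change was 0.20 over the members and -0.02 over all genes, and it was above 0 in 29 members. The groups did not overlap in 20 members, 54.1% of them, where 45.7% of all genes had no overlap. These 20 held all 12 called members and 8 that were not called. Of the Mmp genes 8 rose, 1 fell and 10 were not called. Among the Adamts genes 1 rose and 11 were not called, and 1 of 3 Adamtsl and 1 of 3 Timp genes rose. Without SNT 1, 18 members were called higher and 3 lower, and the shares over all genes also moved, to 19.7% and 24.2%. The lower count of members was 0 without naive 1, naive 2, naive 3 or SNT 3, where 14.8%, 15.7%, 17.0% and 21.4% of all genes were lower.

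**Figure D1:**
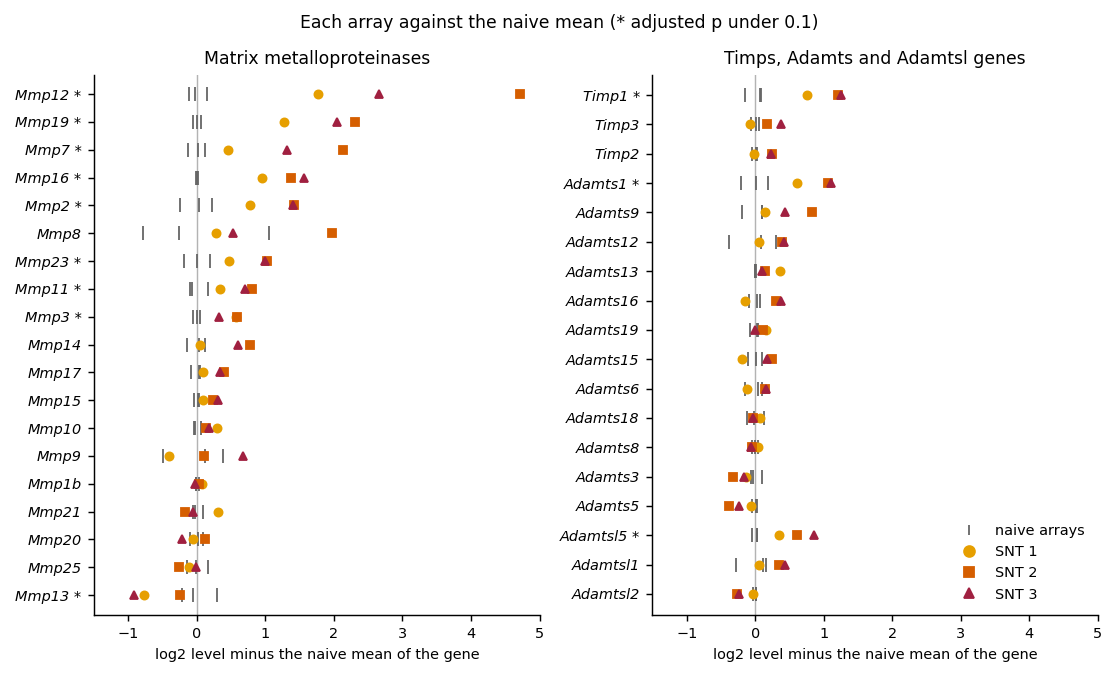
Log2 level of each of the 37 genes on each array minus the naive mean of that gene, with naive arrays as grey ticks and the 3 SNT arrays as coloured points. Mmp12 moved farthest, from 1.76 on SNT 1 to 4.72 on SNT 2, and most Adamts genes lay close to 0.

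The secreted proteases of the chromosome 8 run gave both the largest rise and the only fall called in the family. Mmp12, the macrophage elastase, stood at 4.59, 4.68 and 4.86 on the naive arrays and reached 6.47, 9.43 and 7.37 on SNT 1, 2 and 3. All SNT arrays lay above all naive arrays, and the range of the SNT arrays was 2.96. The log2 fold change was 3.05 ± 0.66 (SE; 8.27-fold; adjusted p = 0.0138). The naive mean of 4.71 lay under 5.11, the 25th percentile of all probe set means, called the dim mark below, and no background level was used here, so the size of this change rests on a baseline not shown to be above background. Mmp7, matrilysin, a small protease without the haemopexin domain, measured 4.23, 4.09 and 4.33 in naive ganglia and 4.67, 6.35 and 5.53 after SNT. The groups did not overlap, although SNT 1 lay only 0.33 above the highest naive array. Its log2 fold change was 1.30 ± 0.37 (adjusted p = 0.0384), from a naive mean of 4.21 that also lay under the dim mark. With dim probe sets left out it was 0.84 and not called (adjusted p = 0.112). The call was lost without naive 1, naive 2, naive 3, SNT 2 or SNT 3, and without SNT 2 the log2 fold change was 0.81.

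Mmp3, stromelysin, which cuts proteoglycans and activates other Mmp precursors, read 3.96, 3.90 and 3.99 in the naive group and 4.51, 4.54 and 4.28 in the SNT group. Here SNT 3 was the lowest SNT array, and the groups did not overlap (log2 fold change 0.49 ± 0.10, adjusted p = 0.012). Both Mmp3 means lay under the dim mark. Mmp10, the related second stromelysin, is close to Mmp3 in sequence, and cross-hybridisation between them was not tested. Mmp10 changed by 0.20 ± 0.09 without overlap and was not called (adjusted p = 0.148, 95% interval -0.01 to 0.41). It was called higher after centring, with the mean of probe sets and with the most variable probe set. Both Mmp10 means also lay under the dim mark. The paper's RNA-seq of the same RNA listed Mmp12, Mmp7 and Mmp10 among its most strongly raised genes. Its exon array result was significant for Mmp12 and Mmp7 and not significant for Mmp10. Mmp20, the enamel protease, and Mmp1b, a rodent relative of interstitial collagenase, stayed under the dim mark in both groups with changes of -0.05 and 0.03.

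Of the collagenases, Mmp13 was called lower and Mmp8 was not called. Mmp13, collagenase of cartilage and healing tissue, gave 5.07, 5.58 and 5.23 in naive and 4.53, 5.05 and 4.37 in SNT ganglia. The groups were separated by only 0.03, between SNT 2 and naive 1. Mmp13 fell by 0.65 on the log2 scale (SE 0.20, adjusted p = 0.0523). The call was lost when naive 1, naive 2, naive 3, SNT 1 or SNT 3 was left out, with a change of -0.40 without naive 2 and -0.37 without SNT 3. Mmp8, the neutrophil collagenase, was picked for a description after its values were seen, because it spread most among the naive arrays. It read 5.13, 5.66 and 6.97 in naive and 6.20, 7.90 and 6.44 in SNT tissue, so the groups overlapped (change 0.93 ± 0.57, adjusted p = 0.281, 95% interval -0.42 to 2.27). Of 7 measured neutrophil markers 1 was called higher (Csf3r) and 2 lower (Ngp and Camp). The shares over all genes were 12.9% higher and 23.3% lower, and a difference of the markers from these was not tested. The sum of the 7 marker log2 levels was 39.4 to 47.2 in naive and 38.6 to 39.5 in SNT ganglia. The granule genes Ngp and Camp read 8.41 and 6.96 on naive 3, the naive array with the highest Mmp8. On SNT 2, where Mmp8 was highest of all, they read 5.56 and 4.98, and Csf3r was at its highest there with 7.38. The part of neutrophils in the Mmp8 values was not tested.

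**Figure D2:**
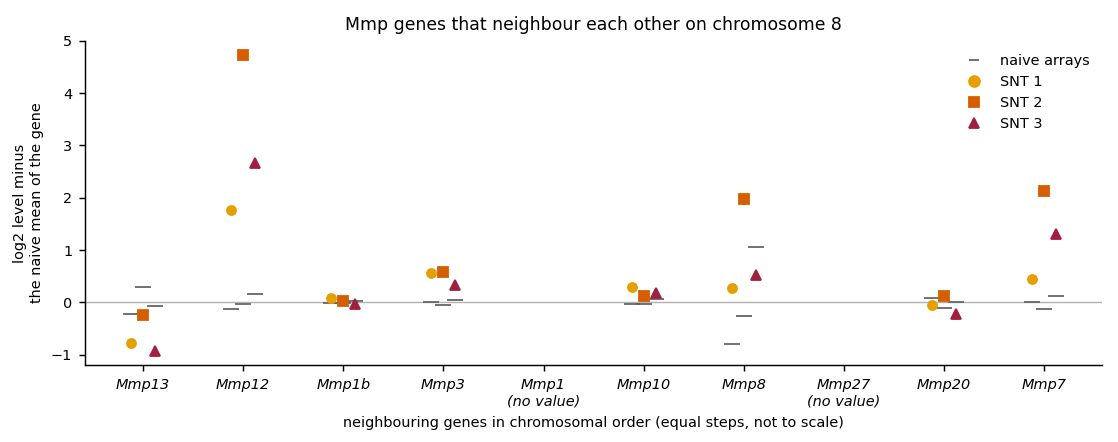
Log2 level minus the naive mean of the gene for the Mmp genes that neighbour each other on chromosome 8, in gene order with equal steps, with naive arrays as grey dashes and the SNT arrays as coloured points. Mmp12 and Mmp7 lay above the naive arrays, Mmp13 lay below, and Mmp1b and Mmp20 stayed near 0.

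Both gelatinases, which cut denatured collagen and the type IV collagen of basement membranes, were measured, and they differed in their result. Mmp2, gelatinase A, stood at 10.15, 9.87 and 10.34 in naive rats and 10.90, 11.53 and 11.52 after SNT. Every SNT array exceeded every naive array, and the log2 fold change was 1.20 ± 0.20 (2.29-fold, adjusted p = 0.00611). Mmp9, gelatinase B, read 5.99, 6.61 and 6.86 in naive and 6.08, 6.59 and 7.16 in SNT ganglia. The groups overlapped almost fully, with a change of 0.12 ± 0.31 (adjusted p = 0.808). The 95% interval of this change ran from -0.61 to 0.86.

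The remaining secreted Mmp genes with a call were Mmp19 and Mmp11. Mmp19, a protease of basement membrane proteins, measured 6.55, 6.44 and 6.50 in naive and 7.77, 8.80 and 8.54 in SNT tissue. The naive arrays spanned 0.11 and all SNT arrays lay at least 1.22 above them (log2 fold change 1.87 ± 0.25, 3.66-fold, adjusted p = 0.0031). Mmp11, a stromelysin that furin activates inside the cell, went from 5.67, 5.64 and 5.91 to 6.08, 6.55 and 6.44. It rose by a smaller amount, 0.62 ± 0.15 (adjusted p = 0.0189), without overlap. Mmp21 stayed under the dim mark with a change of 0.03.

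The membrane-bound Mmp genes were led by Mmp16. Mmp16, a transmembrane protease that can activate the Mmp2 precursor, read 7.19, 7.17 and 7.17 in naive and 8.12, 8.54 and 8.74 in SNT ganglia. The 3 naive arrays were nearly the same, and the log2 fold change of 1.29 ± 0.16 had the smallest adjusted p of the family (0.00262). Mmp23, a membrane-anchored member with an immunoglobulin-like domain, rose from 7.60, 7.41 and 7.79 to 8.06, 8.63 and 8.59 (0.83 ± 0.18, adjusted p = 0.0133). Mmp14, the main cell surface activator of the Mmp2 precursor, stood at 8.81, 8.53 and 8.71 in naive and 8.73, 9.46 and 9.28 in SNT tissue. SNT 1 lay among the naive arrays and the other SNT arrays lay above them. Its change was 0.47 ± 0.19 and missed the threshold (adjusted p = 0.112, 95% interval 0.02 to 0.92). It was called higher without SNT 1 (0.70), and also after cyclic loess, centring, averaging of probe sets or array weights. Mmp17, which is tethered by a lipid anchor, and Mmp15, a transmembrane protease, changed by 0.27 and 0.21 without overlap and were not called (adjusted p = 0.116 and 0.139). Both were called higher after cyclic loess, centring or array weights and without SNT 1, and Mmp17 also with the mean of probe sets. Mmp25, the other lipid-anchored member, changed by -0.13 with overlap.

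Adamts1, which cuts versican and aggrecan, was the single Adamts protease called. It went from 7.79, 7.56 and 7.97 in naive to 8.38, 8.84 and 8.88 in SNT ganglia. The groups did not overlap, and the log2 fold change was 0.93 ± 0.17 (1.90-fold, adjusted p = 0.00756). Adamts5, an aggrecanase and its direct neighbour on chromosome 11, changed by -0.23 ± 0.11 and was not called (adjusted p = 0.16, 95% interval -0.48 to 0.02), also without overlap. Adamts9, another versican-cutting protease, came next among the rises at 0.47 ± 0.18 and just missed the threshold (adjusted p = 0.102). It was called after cyclic loess, centring, array weights or removal of dim probe sets, and without SNT 1. The remaining Adamts genes changed by -0.21 to 0.29. Of these, Adamts6, Adamts8, Adamts12, Adamts15, Adamts16, Adamts18 and Adamts19 had overlapping groups. Adamts13, which cuts von Willebrand factor, changed by 0.20 and Adamts3, which trims procollagens, by -0.21, both without overlap. The median over the Adamts genes was 0.08, against 0.47 over the Mmp genes. These are descriptions, and the difference between the classes was not tested. Without SNT 1, 3 Adamts genes were called higher and 2 lower, where 19.7% and 24.2% of all genes were. After centring, 3 were called higher, where 23.0% of all genes were. The median of all genes then moved from -0.02 to 0.09.

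Adamtsl proteins lack the protease domain and bind fibrillin microfibrils in the matrix. Adamtsl5 read 6.94, 6.87 and 6.95 in naive and 7.27, 7.53 and 7.77 in SNT ganglia. It rose by 0.60 ± 0.13 without overlap (adjusted p = 0.0154), and the call was lost without naive 2, naive 3 or SNT 2 (changes of 0.53, 0.66 and 0.55). Adamtsl1 changed by 0.28 and Adamtsl2 by -0.18, and neither was called (adjusted p = 0.235 and 0.215).

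Of the inhibitors, Timp1 rose and Timp2 and Timp3 were not called. Timp1, a secreted inhibitor of most Mmps, measured 10.80, 10.58 and 10.81 in naive and 11.48, 11.93 and 11.98 in SNT tissue. No array of one group reached the other, and the log2 fold change was 1.07 ± 0.15 (2.10-fold, adjusted p = 0.00381). Timp2, which also takes part in the activation of the Mmp2 precursor by Mmp14, read 11.36, 11.29 and 11.37 before and 11.32, 11.58 and 11.57 after SNT. SNT 1 lay among the naive arrays (change 0.15 ± 0.10, adjusted p = 0.333, 95% interval -0.09 to 0.39). Timp3, which binds to the matrix and also inhibits Adamts proteases, stood at 11.08, 10.96 and 11.03 against 10.96, 11.19 and 11.40. The groups overlapped, with a change of 0.16 ± 0.13 (adjusted p = 0.41, 95% interval -0.14 to 0.46). All 3 Timps were called higher after centring or without SNT 1.

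**Figure D3:**
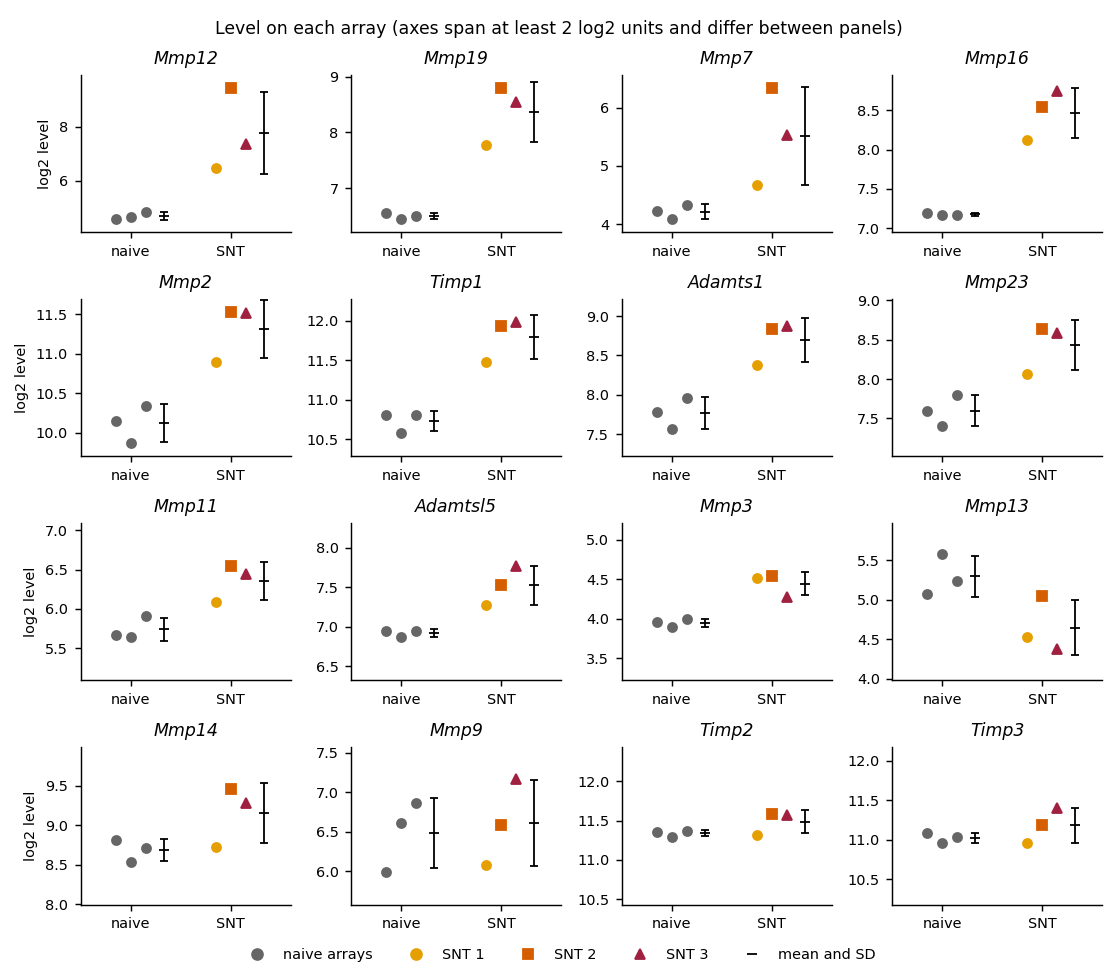
Log2 level on each array for the 12 called genes and for Mmp14, Mmp9, Timp2 and Timp3, with the mean and SD of each group of 3 arrays beside the points. Axes differ between panels. SNT 1 was the lowest SNT array in 10 of the 11 genes called higher, Mmp3 being the exception.

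The SNT arrays were not alike in these genes. Among the 11 members called higher, SNT 1 was the lowest SNT array in 10 and SNT 3 in 1 (Mmp3). The highest was SNT 2 in 7 and SNT 3 in 4. Naive 2 was the lowest naive array in 9 of the 11. The same counts were not made over all genes called higher, so this order is not shown to be particular to the family. Over the 37 members SNT 1, SNT 2 and SNT 3 differed from naive by a median of 0.08, 0.25 and 0.33, and by -0.07, -0.01 and -0.02 over all genes. The SD between SNT arrays exceeded that between naive arrays in 32 of the 37 members and in 78.0% of all genes.

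Single probe sets, most of which cover 1 exon, showed how evenly a gene moved. Of the 656 member probe sets 105 were called higher, 16.0% against 5.16% of all probe sets, and 10 were called lower, 1.52% against 10.7%. Without naive 1, naive 2 or naive 3 the higher count was 52, 44 or 69, while the share over all probe sets was 1.65%, 1.53% or 2.35%. The lower count was then 3, 6 or 4, while the share over all probe sets was 4.16%, 4.28% or 5.63%. All 15 probe sets of Mmp2 were called higher, between 0.84 and 1.38. Of Mmp16 16 of 17, of Mmp12 11 of 12 and of Mmp19 9 of 10 were called higher. A smaller part was called higher in Timp1 (5 of 7), Adamts1 (9 of 16), Mmp23 (6 of 11), Mmp11 (3 of 11) and Adamtsl5 (3 of 12). Mmp12 probe sets ranged from 1.70 to 4.89. The probe sets of a gene changed unequally in 5 of the 36 members tested (limma diffSplice F test, adjusted p under 0.1), 13.9% where 19.5% of all genes tested did. These were Mmp3, Mmp7, Adamtsl2, Mmp16 and Adamts3, and Mmp3 alone kept the call in every fit with 1 array left out. The count was 1 without naive 1, naive 2 or naive 3, where 4.90%, 6.73% or 7.29% of all genes tested were unequal. It was 10 without SNT 1 and 8 without SNT 2, where 26.4% and 23.2% of all genes tested were.

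Mmp3 had the smallest F test p of the family (adjusted p = 0.00287). Of its 14 probe sets 4 were called higher. The one that moved most (6461907) read 4.58, 3.70 and 4.48 in naive and 6.40, 6.72 and 7.03 in SNT ganglia, a change of 2.46 ± 0.28 (adjusted p = 0.00584). The other called Mmp3 probe sets changed by 0.91, 0.94 and 1.17, and 8 of the 14 had a mean under the dim mark. In Mmp7 (F test adjusted p = 0.0518) 3 of 8 probe sets were called higher, at 2.64, 2.07 and 1.49, and the first of these (5792285) went from 4.15, 5.0 and 5.17 to 7.21, 8.48 and 6.56. Adamtsl2 (F test adjusted p = 0.0574) was not called as a gene, yet 3 of its 22 probe sets were called lower, at -1.38, -1.06 and -0.95, and its highest change was 0.36. Adamts3 likewise had 4 probe sets called lower and none higher. Mmp13 had 2 of 13 probe sets called lower, at -1.56 and -1.32. Positions of the probe sets in the genes were not used here, so no exon is named.

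**Figure D4:**
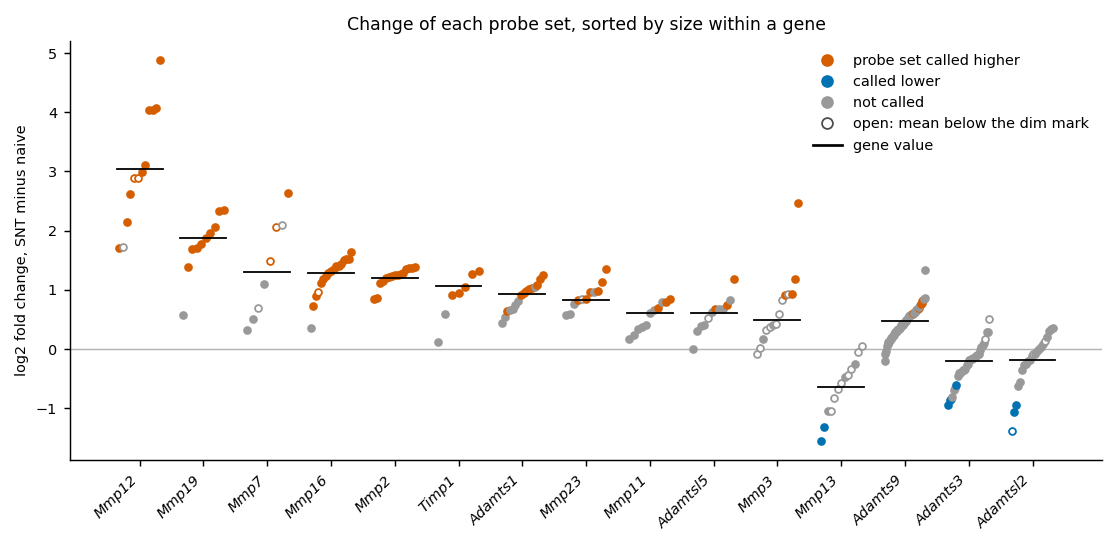
Log2 fold change of each probe set of the 12 called genes and of Adamts9, Adamts3 and Adamtsl2, sorted within a gene, with called probe sets in colour, probe sets under the dim mark open, and the gene value as a black line. Mmp2 probe sets moved together, while 1 Mmp3 probe set at 2.46 stood apart from the other 13.

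Genes that act around the family were taken from 4 lists. Over all genes, 12.9% were called higher and 23.3% lower. In the plasminogen system and among the proprotein convertases that activate Mmp precursors, 3 of 9 measured genes rose and 2 fell (median 0.09). Plau, urokinase, rose most at 1.63 ± 0.28 (adjusted p = 0.00657), followed by Plat, tissue plasminogen activator, at 0.79 and the convertase Furin at 0.51. Plgrkt, a plasminogen receptor, changed by -0.75 and the convertase Pcsk6 by -0.62. Without naive 2 or naive 3 the count of rises was 2, where 5.85% and 7.44% of all genes were called higher. Among inhibitors, inducers and clearance receptors 5 of 10 rose and 1 fell (median 0.40). A2m, the broad protease trap alpha-2-macroglobulin, rose by 1.56 ± 0.26 (adjusted p = 0.00586), and Lrp1, a receptor that takes up Mmp and Timp complexes, rose by 0.65. Cd44, a hyaluronan receptor, rose by 0.93, Tfpi2 by 0.72 and Pcolce by 0.71, and Papln fell by 0.46. Reck, the membrane-anchored Mmp inhibitor, changed by 0.07 and was not called. The rises numbered 3 without naive 1, where 5.68% of all genes were called higher. The fall was lost without SNT 2, without SNT 3 or after centring, where 20.1%, 21.4% and 17.9% of all genes were called lower.

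Of the other metzincins, the wider group of zinc proteases, 3 of 8 rose and 3 fell (median -0.04, and 0.07 after centring). Adam17, which sheds tumour necrosis factor, rose by 0.89 ± 0.19 (adjusted p = 0.014), Adam12 by 0.53 and Adam15 by 0.21. Adam11 and Adam23, neuronal Adam proteins without protease activity, changed by -1.39 and -0.73, and Tll1, a procollagen C-proteinase, by -1.01. The rises numbered 1 without naive 1, naive 2, naive 3, SNT 2 or SNT 3. The share of all genes called higher was then 5.68%, 5.85%, 7.44%, 8.13% and 8.18%, against 12.9% with all arrays.

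Matrix and other substrates rose more often than they fell. Of 28 measured genes 16 were higher and 3 lower, and the median was 0.47. Thbs2, a thrombospondin that binds Mmp2, rose by 2.58 ± 0.32 (adjusted p = 0.00272), Fn1, fibronectin, by 1.78, Vcan, versican, by 1.49 ± 0.37 and Fbn1, fibrillin, by 1.23. Basement membrane genes were among the rises, with Nid2 at 1.19, Lamb1 at 0.78, Lamc1 at 0.77, Col4a2 at 0.56 and Col4a1 at 0.41. The 3 that were lower were a pair of link proteins and a brain proteoglycan: Hapln1 changed by -2.95 ± 0.51 (adjusted p = 0.00653), Hapln4 by -1.41 and Bcan, brevican, by -1.10. Of related genes, Ncan, Hapln2 and Hapln3 changed by -0.24, -0.20 and -0.07 and were not called, nor was Acan, aggrecan, at 0.11, and the proteoglycan Cspg4 rose by 0.26 (adjusted p = 0.0888). The rises numbered 9 without naive 1, naive 2, SNT 2 or SNT 3. The share of all genes called higher was then 5.68%, 5.85%, 8.13% and 8.18%, against 12.9% with all arrays.

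**Figure D5:**
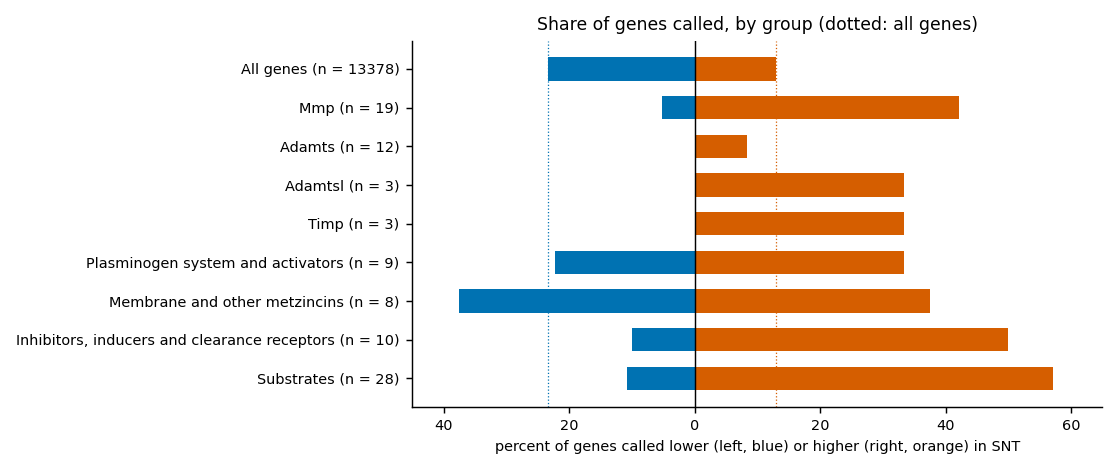
Percent of genes called higher (right) or lower (left) after SNT in the 4 gene classes, in the 4 lists of related genes and in all 13378 genes, whose shares are repeated as dotted lines. The share of Mmp genes called higher was 42.1%, and that of substrates 57.1%.

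Cell type markers moved between the groups as well. Over all genes, 12.9% were called higher and 23.3% lower, and differences of the markers from these shares were not tested. In a whole ganglion, fewer cells of a type and less RNA per cell cannot be told apart. All 12 measured macrophage markers were higher after SNT, with a median of 2.16. The sum of their 12 log2 levels was 84.2 to 89.7 in naive and 105 to 118 in SNT ganglia, and no marker lay under the dim mark on every array. By median they lay 1.61 (SNT 1), 2.49 (SNT 2) and 2.36 (SNT 3) above naive. Of the fibroblast and perineurial markers 4 of 7 rose (median 0.58), of which Col1a2, Col3a1 and Lum also stand among the substrates. Neuronal markers were above the dim mark in all 8 cases and 5 were lower after SNT (median -0.78). Endothelial markers gave 0 calls of 5 (limma) and 0 at an unadjusted p under 0.05. The part of any of these cells in the changes of Mmp, Adamts and Timp genes was not tested. The 4 skeletal muscle markers gave no call (0 at an unadjusted p under 0.05) and were highest on SNT 3, with a median change of 0.75 there. Over all probe sets r was 0.984 to 0.986 among naive arrays and 0.958 to 0.969 among SNT arrays. SNT 1 was nearer to the naive arrays (0.955 to 0.960) than SNT 2 and SNT 3 were (0.938 to 0.947).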

How the data were processed

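RNA from 6 pools was hybridised to Affymetrix Rat Exon 1.0 ST arrays, 3 naive and 3 SNT, each pool from 4 rats. The deposited values were log2 levels of 226599 probe sets, which the authors made in R with oligo by RMA background correction, quantile normalisation and median polish. The sources used here give no versions. Quantile normalisation makes each change relative to the whole array. Intensities without detection calls were used, so a dim probe set always had a value.

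Probe sets were named from the platform annotation: 164162 had 1 symbol, 2388 several and 60049 none. Only those with 1 symbol were used, and 13365 of 13411 symbols matched the GRCr8 gene table. Probe sets were combined by Tukey median polish into a value per gene and array. SNT was compared with naive using lmFit and eBayes in limma 3.58.1 (R 4.3.3), with Benjamini-Hochberg adjustment over all 13378 genes and a threshold of 0.1, and the same for probe sets. Unequal probe sets were tested by diffSplice on the 10741 genes that had at least 3 probe sets above the dim mark of 5.11. Tests were two-sided. P-values measure the spread between 3 pools per group, and the number of arrays limits precision.

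The members and lists were chosen with earlier results of these data known. Values per array are given for called members, for Timp1 to Timp3, Mmp2, Mmp9 and Mmp14, and the 3 members with the smallest F test p are described by probe set. Mmp8, Mmp16, Adamts3 and Mmp13 were added to these descriptions after their values were seen. Probe set counts of Mmp2, Mmp12, Mmp19, Timp1, Adamts1, Mmp23, Mmp11 and Adamtsl5 were not among the planned descriptions either. Alternatives covered the false discovery rate, cyclic loess, centring, the probe set summary, dim probe sets, array weights, leaving out each array and a replicate block. Counts for the classes and lists under loess, centring and left-out arrays were added after seeing the data. The tests were checked on simulated data, in which far fewer genes changed than were called here. Of planted changes of 0.5, 1 and 2 log2 units the gene test recovered 44.8%, 77.6% and 97.0%. Changes near 0.5 were thus often missed there. Promoters came from RefSeq (GRCr8), with 26 of 37 members matched.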

Additional observations from a re-analysis of the deposited data

How the results depend on the processing

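With 3 arrays per group, counts moved with the scaling and with single arrays, for all genes as for the members. The 11 members called higher became 20 after centring and 17 with array weights, and 9 to 18 with 1 array left out (18 without SNT 1). The share of all genes called higher, 12.9%, was then 23.0% after centring, 19.3% with array weights, 19.7% without SNT 1 and 5.68% without naive 1. The single member called lower became 0 at a false discovery rate of 0.05, 2 with the mean of probe sets, 2 with the most variable probe set, 3 with array weights, and 0 to 3 with 1 array left out. Member probe sets called higher ranged from 44 to 148 and those called lower from 3 to 15 when 1 array was left out, against 105 and 10. At a false discovery rate of 0.05 the lower count was 5. The 5 members with unequal probe sets became 1 at a false discovery rate of 0.05, 3 without the dim filter and 1 to 10 with 1 array left out. The causes were not tested.

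Replicate numbers did not pair the arrays: same-numbered arrays' deviations correlated at -0.07, -0.22 and 0.06, and 0 arrays correlated best with their own number. With the replicate block 11 members were higher and 1 lower, 82 member probe sets were higher and 9 lower, and 3 members were unequal.

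The change of Mmp9 reversed to -0.11 without naive 1 and -0.15 without SNT 3, and ranged up to 0.33 with another array left out. Of the 12 called genes, Mmp7, Mmp13 and Adamtsl5 were no longer called in some fits with an array left out. The other 9 kept the call in all 6. Mmp12 and Mmp11 only just kept it without naive 1 (limma adjusted p = 0.0993 and 0.0998). Adamts1 (adjusted p = 0.159) and Mmp11 (0.313) lost it with the most variable probe set, and Mmp7 (0.112) without dim probe sets. Over 7 settings other than the false discovery rate and left-out arrays, the 37 members kept their call in 226 of 259 cases, gained one in 30 and lost one in 3. With 1 array left out they kept it in 199 of 222 cases, gained one in 10 and lost one in 13. Signal under the dim mark in both groups limits Mmp3, Mmp10, Mmp1b, Mmp20, Mmp21 and Adamts19, since no background level was used here. In Mmp12, Mmp7 and these genes the naive mean lay under it.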

Other observations

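Other short motifs in the promoters of the 26 matched members are given as counts, with both strands searched and matches of different motifs allowed to overlap. The TATA box letters TATAAA stood in 10 of 26, against 12.9% of all rat promoters, and 7 of these 10 were in the 8 measured genes of the chromosome 8 run. The PEA3 letters AGGAAG, bound by Ets factors, stood in 11 (29.5% of all promoters). The GC box letters GGGCGG stood in 12 (30.5%), the STAT letters TTCNNNGAA in 3 (7.67%) and the cyclic AMP element TGACGTCA in 0 (1.59%).

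T cell markers were higher after SNT in 3 of 4 measured genes, with Cd8a changing by 2.37 and Cd4, which rat macrophages also express, by 1.26. Of the myelinating Schwann cell markers 3 of 6 rose, and of the satellite glia markers 3 of 6 rose and 2 fell, with Gfap at 1.86 and Fabp7 at -1.31. The shares over all genes were 12.9% higher and 23.3% lower, and differences of these markers from them were not tested. Adamts15 and Adamts8, a further pair of neighbours on chromosome 8, changed by 0.07 and -0.02, and neither was called.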
